A study of Mus musculus with 30 samples.

Results

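Broad H3K27ac domains were long stretches of acetylated chromatin that every one of the 4 deposited H3K27ac peak lists reached. Peaks of the 4 lists that overlapped or touched on chromosomes 1 to 19 and X were merged into 37671 regions. Of these, 12885 regions (34.2%) held a peak of every list, and 597 of the 12885 (4.63%) were 4000 bp or wider and formed the broad domains. The members were thus selected on peak position and width. The width of a domain is that of the merged region, so it was set by the peak positions in all 4 lists, and a domain could be a chain of shorter peaks. Because the covered length in each list helped to decide which regions passed 4000 bp, lengths and scores in the domains are given as descriptions, with no test.

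The series compared CK1750 and Tnm2, which are lines of mouse lung adenocarcinoma cells. Each was cultured with DMSO, the solvent, or with UNC0638 at 1 µM, and the 30 samples fell into 12 groups by line, treatment and antibody. CK1750 resembles tumor-propagating cells, the fraction of a tumor that can seed a new one, and Tnm2 had little Sca-1, a surface antigen of such cells. Groups differed in line, treatment and antibody alone, and no group carried an added knockdown or transgene in the labels. H3K27ac was immunoprecipitated in 9 samples, of which 3 were from CK1750 with DMSO and 2 from each of the other groups. The labels gave 2 of the 3 CK1750 DMSO samples the same replicate number, as sequencing runs of it, and gave both CK1750 UNC0638 samples the same number too. All groups were cultured in serum-containing medium. The study's culture treatments lasted 96 h, with medium and drug renewed at 48 h, and no separate duration was given for the chromatin samples.

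One merged list was deposited for each H3K27ac group, so there was no replicate list, no spread between replicates and no p-value, and the number of reads behind each list is unknown. Cells with and without much Sca-1 were each represented by 1 line, so what goes with that property and what goes with the line cannot be told apart. The lists carried some epithelial promoters. Krt8, Krt18, Krt19, Cdh1 and the lung factor Nkx2-1 had a peak at a transcription start site (TSS) in every list. Of 17 lung epithelial markers, 9 had a peak at a TSS in CK1750 with DMSO and 6 with UNC0638, 8 had one in Tnm2 with DMSO and 6 with UNC0638, and the defining markers Epcam and Sftpc had none in any list. Of 19 markers of blood, endothelial, mesenchymal and neural cells, 1 (Col1a1) had a peak at a TSS in 3 lists, and none had one in Tnm2 with UNC0638. Genes linked to mesenchymal states stood on other lists and are named after their values were seen. Of these, Vim, Zeb1, Zeb2, Cdh2 and Fn1 had a peak at a TSS in every list, and Snai1 and Twist1 had none. Peaks thus lay at TSSs of some epithelial and some mesenchymal genes and were absent from others of both kinds. A peak at a TSS does not measure expression, and the state of the cells was not tested.

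Acetylation of lysine 27 on histone H3 is written by p300 and CBP and marks active promoters and enhancers. Most acetylated sites span a few nucleosomes, but some loci carry long, nearly continuous stretches, often made of several enhancers side by side. Such stretches are known for lying over genes that are highly transcribed in, or define, a cell type. UNC0638 blocks G9a and Glp, which methylate lysine 9 of the same histone tail.

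The 3 widest domains outside protein-coding TSSs showed what kind of sequence the domains were made of. One stretch of 300 bases was taken from each, the window with the most matches to TGANTCA, where N is any base. The usual site of the AP-1 (Fos and Jun) factors has C or G at N, so TGANTCA is a looser pattern. Matches are in capitals and were sought on both strands, and coordinates and sequence are those of GRCm38.p6 (mm10), plus strand. The stretch in an intron of Pmepa1 (chr2:173266404-173266703) held 3 of the 7 matches of its domain, all with A or T at N. The stretch in an intron of Vmp1 (chr11:86593116-86593415) held 2 of 9. The stretch in an intron of the long noncoding RNA gene Lncppara (chr15:85665413-85665712) held 1 of 3.
Pmepa1 intron: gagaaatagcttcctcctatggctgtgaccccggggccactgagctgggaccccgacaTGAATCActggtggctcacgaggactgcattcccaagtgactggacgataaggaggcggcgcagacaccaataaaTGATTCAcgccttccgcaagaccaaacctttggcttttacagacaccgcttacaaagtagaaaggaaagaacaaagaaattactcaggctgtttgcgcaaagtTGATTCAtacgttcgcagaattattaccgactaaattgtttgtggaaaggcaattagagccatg
Vmp1 intron: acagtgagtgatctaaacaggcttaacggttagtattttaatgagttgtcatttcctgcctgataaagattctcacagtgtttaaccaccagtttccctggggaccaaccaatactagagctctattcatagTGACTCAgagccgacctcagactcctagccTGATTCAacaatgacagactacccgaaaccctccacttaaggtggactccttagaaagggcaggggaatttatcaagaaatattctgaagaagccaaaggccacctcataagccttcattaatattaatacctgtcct
Lncppara intron: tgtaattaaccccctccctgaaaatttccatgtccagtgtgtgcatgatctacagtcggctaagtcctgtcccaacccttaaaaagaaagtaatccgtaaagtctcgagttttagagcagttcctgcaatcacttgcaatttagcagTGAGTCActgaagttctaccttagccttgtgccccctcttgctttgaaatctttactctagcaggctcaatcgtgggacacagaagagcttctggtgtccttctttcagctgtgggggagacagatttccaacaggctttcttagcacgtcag

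The widest domain also held the gene of microRNA-21, Mir21a, which is shown because it was the only noncoding gene of the 5 widest domains on the list of noncoding RNAs used here. Its mature products (RefSeq, GRCm38.p6, minus strand of chromosome 11) are printed with the seed, bases 2 to 8, in capitals. The guide strand lay at chr11:86584120-86584141 and the passenger strand at chr11:86584082-86584103, 10.6 and 10.5 kb from the start of the domain. In all, 11 microRNA genes lay in 10 domains.
mmu-miR-21a-5p: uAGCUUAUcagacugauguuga
mmu-miR-21a-3p: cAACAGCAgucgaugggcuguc

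The RefSeq promoters of Junb, Krt8 and Ezr show starts that lie within domains. Each runs from 250 bases before to 50 after the annotated start, on the minus strand. The Junb promoter (chr8:84978699-84978998) held 1 CCAAT and 1 TATAAA match, both in capitals. In the Krt8 promoter (chr15:102004293-102004592) the capitals mark TATAAA matches on both strands that overlap. In the Ezr promoter (chr17:6782731-6783030) they mark 1 TGANTCA match.
Junb promoter: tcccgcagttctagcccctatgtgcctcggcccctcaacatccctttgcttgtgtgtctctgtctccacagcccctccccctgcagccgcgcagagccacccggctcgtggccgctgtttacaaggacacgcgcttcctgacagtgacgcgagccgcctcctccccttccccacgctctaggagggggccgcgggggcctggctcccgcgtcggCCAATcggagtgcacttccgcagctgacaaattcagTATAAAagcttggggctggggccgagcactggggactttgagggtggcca
Krt8 promoter: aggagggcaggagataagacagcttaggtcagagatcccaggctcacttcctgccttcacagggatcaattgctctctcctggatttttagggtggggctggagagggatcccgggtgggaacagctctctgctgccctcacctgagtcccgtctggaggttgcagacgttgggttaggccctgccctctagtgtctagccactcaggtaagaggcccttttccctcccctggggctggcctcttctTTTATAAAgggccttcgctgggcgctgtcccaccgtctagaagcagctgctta
Ezr promoter: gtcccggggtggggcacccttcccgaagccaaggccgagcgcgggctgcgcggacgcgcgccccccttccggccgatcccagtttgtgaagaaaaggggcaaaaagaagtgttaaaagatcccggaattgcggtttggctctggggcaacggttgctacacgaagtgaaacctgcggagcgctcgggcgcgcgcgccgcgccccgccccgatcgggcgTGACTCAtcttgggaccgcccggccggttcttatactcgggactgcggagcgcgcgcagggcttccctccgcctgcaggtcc

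Domains were mostly a few kilobases long, with a short tail of very wide ones. The median width was 5018 bp, the middle 50% lay between 4395 and 6013 bp, and the widest reached 21935 bp. By width, 294 domains measured under 5 kb, 152 from 5 to under 6 kb, 104 from 6 to under 8 kb, 29 from 8 to under 10 kb, and 18 measured 10 kb or more. Together they spanned 3.32 Mb. They took 8.95% of all bases covered by peaks in CK1750 with DMSO, 9.47% with UNC0638, 8.64% in Tnm2 with DMSO and 10.9% with UNC0638.

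The widest domain (chr11:86573535-86595469) ran over the 3' part of Vmp1, a gene of autophagosome formation, and beyond its end. Of its 21935 bp, peaks covered 20831 bp in CK1750 with DMSO, 21935 bp with UNC0638, 19743 bp in Tnm2 with DMSO and 18413 bp with UNC0638. It was held as 4, 1, 6 and 5 peaks in those lists, so it was unbroken only in CK1750 with UNC0638. No other domain was covered over as many bases in the list that covered it least.

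Next came a domain over Myof (chr19:38024200-38043994), which encodes the membrane-repair protein myoferlin. Its covered length was 14076 and 17149 bp in CK1750 with DMSO and UNC0638, and 19222 and 17934 bp in Tnm2. Both Tnm2 lists thus covered more of it than either CK1750 list. The third domain (chr15:85662147-85681656) lay in introns of Lncppara, 53.9 kb from the nearest protein-coding TSS, that of Ppara. It was covered almost alike everywhere, over 17823, 17538, 18012 and 18064 bp in the same order of lists.

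The fourth (chr2:173253679-173268994) lay in introns of Pmepa1, a feedback inhibitor of TGF-beta signaling, and was covered over 12562, 13099, 13732 and 13694 bp. Its TSS held a separate domain of 4260 bp. The fifth (chr19:9069668-9083943) ran from the end of Ahnak to Scgb1a1, the club cell secretoglobin gene, and was covered over 12800, 13747, 12111 and 10640 bp. The TSS of Scgb1a1 lay 4015 bp outside it. At that TSS the peak scores were 53.0 in CK1750 with DMSO and 57.9 in Tnm2 with DMSO, near the minimum score of 50, and there was no peak with UNC0638.

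Of the next domains, those of Neat1 (12928 bp) and Malat1 (12445 bp) lie near each other on chromosome 19 and give abundant nuclear noncoding RNAs. The Neat1 domain was covered over 12508, 12733, 12316 and 10548 bp. The Malat1 domain was covered over 9003, 12258, 8937 and 8250 bp, so it was longest in CK1750 with UNC0638. A domain at S100a3 and S100a4, genes of calcium-binding proteins, measured 12488 bp and was covered over 10464, 12400, 11034 and 12080 bp.

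The ninth domain (chr6:84261876-84274262) lay in an intron of the noncoding RNA gene Gm44127, 242 kb from the nearest protein-coding TSS, and was covered over 7104, 10085, 10963 and 10023 bp. The tenth lay in introns of Foxn1, which encodes a forkhead factor of the thymus and skin, and was covered over 11823 and 12305 bp in CK1750 and 9351 and 8436 bp in Tnm2. The domain at Tnrc18 (11969 bp) was among the 5 with the largest smallest coverage, with 11969, 11524, 11719 and 11355 bp.

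**Figure D1:**
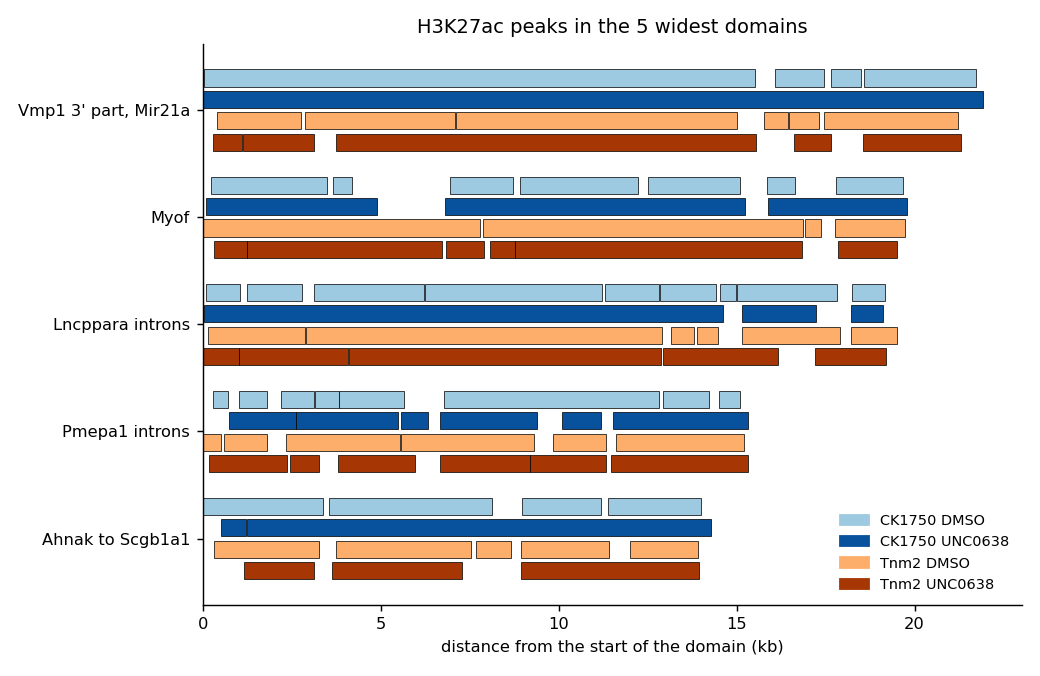
H3K27ac peaks (bars) in the 5 widest domains, with the distance from the start of each domain in kilobases on the x axis and one row per list, with the CK1750 rows above those of Tnm2 and DMSO above UNC0638. The first domain is 1 peak in CK1750 with UNC0638 and 4, 6 and 5 peaks in the other lists.

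Fewer domains than regions in general lay at protein-coding promoters. A protein-coding TSS lay within 1 kb of 265 domains (44.4%, Wilson 95% interval 40.5 to 48.4%), against 58.9% of all regions found in every list. Regions of 3000 to under 4000 bp had a similar share, 45.0%, so the lower share was not particular to the domains. Intervals cover counting error only. Wide regions reach further, and 26.8% of domains against 56.4% of all regions had a TSS within 1 kb of their centre. The count at the centre depends on width too, in the other direction. A TSS inside a wide domain can lie over 1 kb from its centre, and one inside a narrow region seldom can. Neither share is thus free of width. By bases, 13.5% of the domains' sequence was exonic, 58.0% intronic and 28.5% between genes.

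Domains contained the TSSs of 275 protein-coding genes. One such gene was found in 234 domains, 22 domains had 2, and 1 domain had 3, namely Hcfc1r1, Thoc6 and Tnfrsf12a, the last a receptor of the TNF family. The remaining 340 domains contained none. Of these, 187 (55.0%) overlapped a protein-coding gene, and their median distance to the nearest protein-coding TSS was 18.1 kb, with the furthest at 451 kb.

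Measured from the most upstream TSS of the gene inside the domain, domains around a TSS extended mostly downstream. Where a gene had several TSSs, this choice lengthens the downstream side and shortens the upstream side. How much it adds was not tested. In the 234 domains with 1 gene, the domain reached a median of 1788 bp upstream of the TSS (middle 50% 960 to 2974 bp) and 3252 bp downstream (2252 to 4374 bp). It reached further downstream than upstream in 161 of 234 (68.8%, Wilson 95% interval 62.6 to 74.4%). At 2 kb downstream, a peak covered 63.2% of these domains in CK1750 with DMSO, 74.8% with UNC0638, 62.8% in Tnm2 with DMSO and 56.0% with UNC0638. At 2 kb upstream the shares were 34.6, 38.5, 35.9 and 31.6%. At promoter regions narrower than 4 kb (n = 6229), 2.2 to 4.74% were covered at 2 kb downstream and 0.514 to 0.722% at 2 kb upstream.

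**Figure D2:**
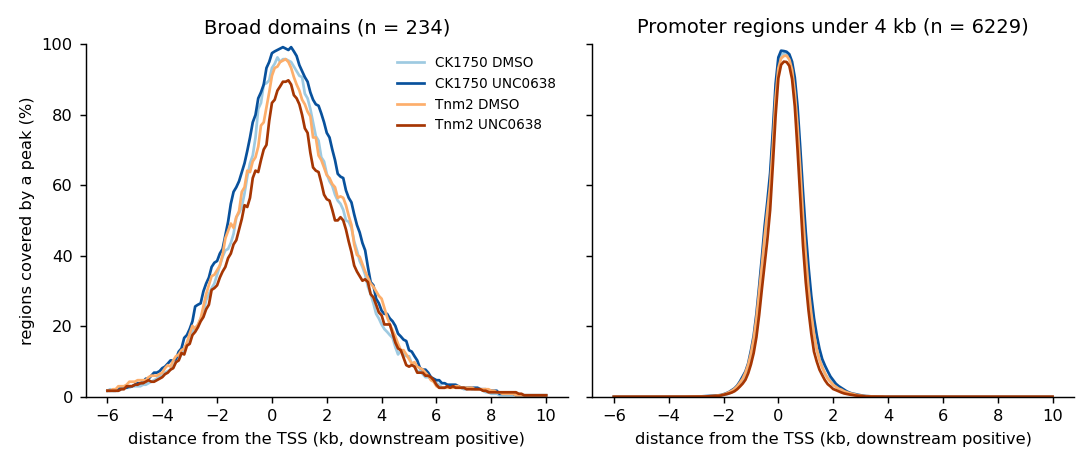
Share of regions covered by a peak (y axis, percent) against distance from the TSS (x axis, kb, downstream positive) in each list, for the 234 broad domains with 1 protein-coding gene (left) and 6229 promoter regions under 4 kb (right). The TSS is the most upstream one of the gene inside the region. The broad domains are still covered in 56.0 to 74.8% of cases at 2 kb downstream and in 31.6 to 38.5% at 2 kb upstream, and the narrow regions fall off within that distance.

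Genes of several signaling and identity groups had their TSS in a domain. Of all 21670 protein-coding genes 1.27% did, and of the 7959 with a TSS in a region found in every list 3.46% did. Of the 248 genes in the 14 lists examined, 42 had a TSS in a domain. The lists were not an independent choice, and no test was made of them.

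Among 13 AP-1 factors, whose usual site is among the forms of TGANTCA, the domains held Junb, Fosl2 and Fosl1. The Junb domain was covered over 7686 bp in CK1750 with DMSO, 7912 bp with UNC0638, 7274 bp in Tnm2 with DMSO and 7222 bp with UNC0638. The Fosl2 domain was covered over 7432, 7591, 5964 and 6356 bp, and that of Fosl1 over 2989, 3584, 4647 and 3830 bp. Fosl2 was thus longer in both CK1750 lists than in either Tnm2 list, and Fosl1 longer in both Tnm2 lists. Another 8 AP-1 genes had a TSS in a narrower region of every list.

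Of 16 genes that are induced by or restrain MAP kinase signaling, 4 were in domains. Dusp4, Dusp5 and Dusp6 encode phosphatases that inactivate MAP kinases, and Spry2 encodes an inhibitor of receptor tyrosine kinase signaling. The Dusp4 domain was covered over 6930, 6878, 8484 and 7578 bp and that of Spry2 over 6055, 6588, 7139 and 6624 bp. Both were longer in each Tnm2 list than in each CK1750 list. The Dusp6 domain was covered over 4829, 5701, 4972 and 4387 bp, and that of Dusp5 over 3657, 4439, 4163 and 3762 bp.

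Upstream of that pathway, 2 of 14 growth factor and receptor genes were in domains, Ereg, an EGF receptor ligand, and the receptor gene Fgfr2. The Ereg domain was covered over 4104, 4330, 3985 and 4096 bp and the Fgfr2 domain over 4123, 3792, 3997 and 3643 bp. Neither was far from the 4000 bp limit in any list.

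Of 14 genes of YAP/TEAD signaling, Ccn1, a secreted matrix protein and YAP target, and Ajuba, a LIM protein of cell junctions, were in domains. The Ccn1 domain was covered over 6101, 6242, 5528 and 5778 bp, and the Ajuba domain over 5646, 5752, 5189 and 4159 bp. Of 16 TGF-beta pathway genes, 3 were in domains, all of them encoding inhibitors or targets: the corepressor Tgif1 (8268, 8896, 7425 and 7278 bp), Id1, an inhibitor of basic helix-loop-helix factors (5086, 6548, 4496 and 3496 bp), and the inhibitory Smad7 (4770, 4693, 4653 and 4713 bp). The Smad7 domain was covered almost alike in every list.

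Epithelial, lung and state factors had 9 of 30 genes in domains, and the widest were those of Gata6, Runx1, Klf6, Runx2 and Ehf. Gata6, an endoderm and lung factor, was covered over 6412, 6572, 8615 and 8279 bp and so was longer in Tnm2. Runx1 (6821, 8488, 5324 and 5056 bp), Klf6 (6431, 6515, 4678 and 3479 bp) and Runx2 (5667, 5752, 4046 and 4191 bp) were longer in both CK1750 lists than in either Tnm2 list. Ehf, an epithelial ETS factor, was covered over 3489 and 5352 bp in CK1750 and 2836 and 4082 bp in Tnm2, and was longer with UNC0638 in both lines.

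The cytoskeleton list had 9 of 22 genes in domains, the largest count of the lists together with the state factors. The nuclear lamin gene Lmna had the widest of them (7334, 9356, 8677 and 7408 bp). Krt8, a keratin of simple epithelia, was covered over 7388, 7692, 7090 and 5889 bp, and the actin gene Actb over 6746, 7156, 6298 and 5337 bp. Ezr, a linker of membrane and actin, was covered over 5516, 5597, 4628 and 2998 bp. Myh9, a nonmuscle myosin heavy chain, was covered over 5033, 5286, 3561 and 1907 bp, and Tpm1, a tropomyosin, over 4470, 5573, 4425 and 3640 bp. Of the 9 domains, 8 were longest in CK1750 with UNC0638, as were 60.6% of all broad domains and 42.1% of all regions found in every list, and Flna, named after its values were seen, was not (4318, 4001, 2677 and 989 bp). Likewise 8, all but Lmna, were shortest in Tnm2 with UNC0638, as were 43.4% of broad domains and 41.6% of all regions. These counts take the wider domain of Lmna. A second domain with an Lmna TSS, covered over 7244, 7448, 6381 and 6195 bp, was shortest in Tnm2 with UNC0638.

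Myc and cell cycle genes gave 3 of 21. Myc itself was covered over 4603, 4743, 4343 and 3928 bp, its antagonist Mxi1 over 5302, 5538, 4734 and 4435 bp, and the G1 kinase gene Cdk6 over 4571, 5060, 4811 and 4482 bp. Noncoding RNA genes gave 4 of 15, which were Mir21a, Neat1, Malat1 and Mir22hg. From the list of NF-kB, hypoxia and stress genes (21 genes) only Vegfa, a vascular growth factor gene, was in a domain, covered over 4008, 3381, 3177 and 2284 bp.

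Active genes did not always carry a domain. All 14 translation and housekeeping genes had a TSS in a region of every list, and none of those regions was 4000 bp wide. Of 21 genes of the H3K9 methylation machinery, including the targets of UNC0638, 19 had a TSS in such a narrower region and 0 had one in a domain. Of 10 genes listed here as linked to G9a, among them Mmp10, Mmp13, Ctse, Anxa10 and Lcp1, which the study named, only Ly6a was in a domain. The others had no peak at a TSS in any list, apart from Mmp13 in Tnm2 with UNC0638 (score 51.3). They are thus not cases of active genes without a domain.

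Peaks in the domains ranked high in every list. The highest-scoring peak of a domain stood at a median percentile of 91.0 in CK1750 with DMSO, 93.6 with UNC0638, 94.4 in Tnm2 with DMSO and 90.8 with UNC0638. In regions of 3000 to under 4000 bp it stood at 86.1, 87.7, 89.3 and 81.1. The rank rose with width among narrower regions too, and a domain of several peaks is ranked by its best one. The score is -10 log10 of the caller's P value and grows with depth as well as enrichment. Its median over the domains was 1319, 1587, 1196 and 495 in the same order, and 110, 128, 51 and 9 domains reached 3100, where many scores pile up. The low scores of the Tnm2 UNC0638 list stood beside its shorter covered length, and depth and acetylation cannot be told apart from these lists.

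A minority of domains was long in every list by itself. The median covered length was 3938 bp in CK1750 with DMSO, 4529 bp with UNC0638, 4201 bp in Tnm2 with DMSO and 3916 bp with UNC0638. At least 4 kb was covered in 287, 444, 346 and 283 of the 597 domains, and in every list in 186 (31.2%). Of the bases in domains, 58.5% were covered by all 4 lists, 17.1% by 3, 14.3% by 2 and 10.1% by 1.

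A domain was often several peaks. It was held as a single peak in 27.6% of cases in CK1750 with DMSO (24.2 to 31.4%), 53.3% with UNC0638 (49.3 to 57.2%), 28.1% in Tnm2 with DMSO (24.7 to 31.9%) and 34.5% with UNC0638 (30.8 to 38.4%). It was a single peak in all 4 lists in 41 domains, and at least 1 list had a single peak of 4 kb or more in 405. The CK1750 UNC0638 list therefore stood apart, with about as many unbroken as broken domains.

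**Figure D3:**
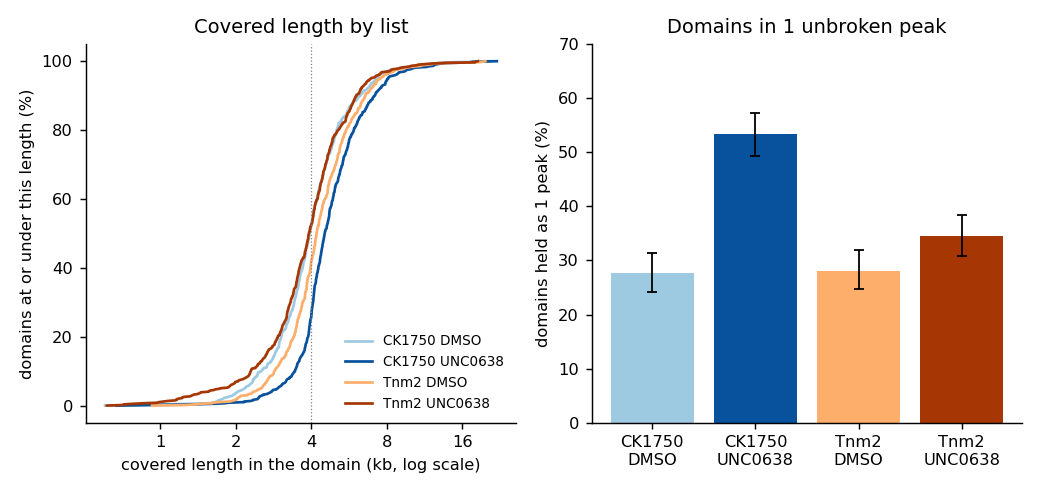
Left, share of the 597 domains (y axis, percent) whose covered length is at or below the value on the x axis (kb, log scale) in each list, with a dotted line at 4 kb. Right, share of domains held as 1 unbroken peak in each list, with Wilson 95% intervals, highest in CK1750 with UNC0638 at 53.3%.

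In CK1750, domains were longer with UNC0638 than with DMSO. Covered length was longer in 518 of 597 domains (86.8%, against 69.0% of all regions found in every list) and shorter in 79. The domains had a median log2 ratio of 0.22 (middle 50% 0.06 to 0.40), and the summed length went from 2.55 to 2.99 Mb, a ratio of 1.17. The same ratio was 1.12 over all regions found in every list, where the median was 0.12. Past 1.5-fold, 78 domains were longer (13.1%, against 10.8% of all regions) and 5 were shorter (0.838%, against 1.98%). Regions just narrower, of 3000 to under 4000 bp, came close to the domains. Of these 924 regions, 752 were longer with UNC0638, the median log2 ratio was 0.17, and 13.1% were longer past 1.5-fold. The share past 1.5-fold was close to that of regions in general, and in either direction it ran from 6.17% where every list covered at least 50% of the region to 21.3% with only scores of at least 100, against 13.9% here.

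The added length lay both between and beyond the DMSO peaks. Bases covered with UNC0638 only came to 561 kb, 18% of the bases covered in either CK1750 list, with 204 kb in gaps between DMSO peaks and 357 kb beyond the outermost ones. Bases covered with DMSO only came to 120 kb (3.86%). Several peaks with DMSO were a single peak with UNC0638 in 198 domains (33.2%), and the opposite held in 45 (7.54%).

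The 3 CK1750 domains with the largest ratio were short with DMSO alone. A domain in an intron of Chchd6 (chr6:89459276-89464893), a gene of mitochondrial cristae, was covered over 604 bp in CK1750 with DMSO, 3469 bp with UNC0638, 5279 bp in Tnm2 with DMSO and 5587 bp with UNC0638, a log2 ratio of 2.52 in CK1750 and 0.08 in Tnm2. A domain in Slc6a6, the taurine transporter gene, was covered over 1064, 3335, 4650 and 4101 bp (1.65 in CK1750). A domain at Cpt1a, the gene of the carnitine palmitoyltransferase that lets fatty acids into mitochondria, was covered over 1950, 5997, 6850 and 5170 bp (1.62). In all 3, CK1750 with DMSO was the lowest list, and its highest peak scores there were low, at 59.6, 99.2 and 278. Cpt1a also had a TSS in a second domain, covered over 4450, 4868, 5419 and 4080 bp, which differed little in CK1750 (0.13).

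At the other end, a domain near Dlx2, a homeobox gene, was covered over 1291, 670, 2495 and 3114 bp (-0.95 in CK1750), and one in an intron of the phosphatase gene Ptpn1 over 4184, 2350, 4590 and 3104 bp (-0.83). The lowest ratio (-0.99) belonged to a domain at chr8:20540797-20553087, covered over 12291, 6207, 2890 and 2769 bp. All of its sequence had near-identical copies at other places, and its reads may stem from any of them.

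In Tnm2 the direction was opposite. Covered length was shorter with UNC0638 in 425 domains (71.2%, against 65.0% of all regions) and longer in 172. The domains had a median log2 ratio of -0.13 (middle 50% -0.31 to 0.03), and the sum went from 2.75 to 2.48 Mb, a ratio of 0.905. Over all regions the summed ratio was 0.902 and the median -0.11. Past 1.5-fold, 59 domains were shorter (9.88%, against 12.5% of all regions) and 1 was longer (0.168%, against 3.27%). Taking as many top-scoring peaks from each list as the shortest one held gave a median of -0.07, and the share past 1.5-fold in either direction, 10.1% here, ran from 3.29% where every list covered at least 50% of the region to 21.3% with peaks within 500 bp joined. Domains thus moved about as regions in general did, with fewer large differences in either direction.

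Bases covered with DMSO only in Tnm2 came to 456 kb (15.5%), of which 142 kb lay in gaps between UNC0638 peaks and 314 kb beyond them. Bases covered with UNC0638 only came to 195 kb (6.62%). Although length was lost, 116 domains (19.4%) went from several peaks to a single one and 78 (13.1%) the other way.

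The Tnm2 domains with the lowest ratios kept a fragment of their DMSO length. A domain 12.5 kb from Tnrc6a, which encodes a protein of microRNA silencing, was covered over 2063 and 3364 bp in CK1750 and over 4141 and 710 bp in Tnm2, a log2 ratio of -2.54. The domain of Ly6a (chr15:74994658-75000845), which encodes Sca-1, was covered over 5829 and 5861 bp in CK1750 and over 3173 and 715 bp in Tnm2 (-2.15). In Ly6a, 50% of the sequence had near-identical copies elsewhere. The paper reported that UNC0638 raised Sca-1 in several lines, more so in Sca-1-low ones such as TnM2, and raised its mRNA. The covered length in Tnm2 went the other way. It is a different measure from antigen or mRNA, and the reason for the difference was not tested. The domain of Myadm, a membrane protein gene of myeloid differentiation, was covered over 4611 and 4621 bp in CK1750 and 4479 and 1185 bp in Tnm2 (-1.92). In all 3, the list of Tnm2 with UNC0638 was the lowest, with highest scores of 56.8, 52.0 and 118.

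The largest Tnm2 ratios in the other direction were smaller. Acsbg1, an acyl-CoA synthetase gene, was covered over 2659 bp with DMSO and 4042 bp with UNC0638 (0.60), and was 2875 and 3824 bp in CK1750. An intron of Cyb561, a cytochrome gene, was covered over 2543 and 3711 bp in Tnm2 (0.55) and 2533 and 3454 bp in CK1750. A domain starting at chr8:20295213 (3033 and 4442 bp, 0.55) was copied over its whole length.

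Longer in CK1750 and shorter in Tnm2 was the most frequent pair of directions, in 370 domains (62.0%, against 45.1% of all regions). Each direction was already the more frequent one in its own line, so the pair would be frequent without any link within single domains. Such a link was not tested. Past 1.5-fold in both it held in 14 (2.35%, against 1.89%), and the opposite past 1.5-fold in 0. Of the 14, chosen after their values were seen, Bcar1, the gene of an adhesion adaptor protein, was covered over 5127 and 8022 bp in CK1750 and 8184 and 4636 bp in Tnm2. Within 1.5-fold in all 4 comparisons made between lists were 376 domains (63.0%, against 59.3%). The difference between the lines was not tested, since each line had 1 list per treatment.

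**Figure D4:**
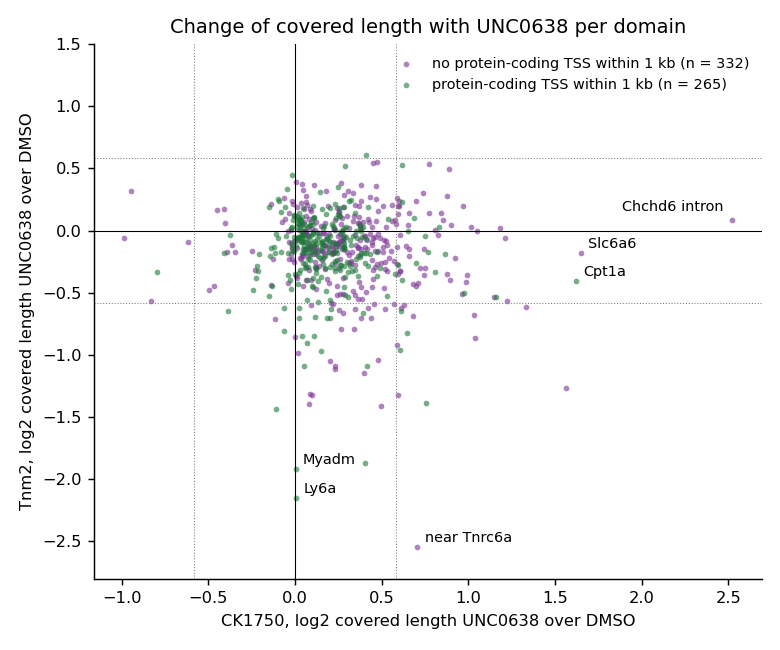
Each point is 1 of the 597 domains, with the log2 ratio of covered length with UNC0638 over DMSO in CK1750 on the x axis and in Tnm2 on the y axis, and dotted lines at 1.5-fold. Points gather to the right of 0 (518 domains) and under 0 (425 domains), and the named domains have the largest or smallest ratios.

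Domains away from promoters differed more in CK1750 than those at promoters, as regions of any width did. The 332 domains with no protein-coding TSS within 1 kb had a median log2 ratio of 0.27 in CK1750, and 59 (17.8%) were longer past 1.5-fold with UNC0638, against 18% of all such regions found in every list. The 265 promoter domains had a median of 0.13, and 19 (7.17%) were, against 5.71%. In Tnm2 the median was -0.13 in both sets, with 35 (10.5%, against 14.7%) and 24 (9.06%, against 10.9%) shorter past 1.5-fold.

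With DMSO, the lines differed less than with UNC0638. The median log2 ratio of CK1750 over Tnm2 was -0.08 with DMSO and 0.24 with UNC0638, and CK1750 was the shorter in 351 domains with DMSO (against 55.2% of all regions) and the longer in 465 with UNC0638 (against 71.0% of all regions). Past 1.5-fold with DMSO, 30 domains were longer in CK1750 (5.03%, against 6.76% of all regions) and 76 shorter (12.7%, against 11.5%). With UNC0638, 124 were longer (20.8%, against 19.9%) and 15 shorter (2.51%, against 4.28%). Each list enters 2 of the 4 comparisons, so these counts share their lists. Of the 76 shorter with DMSO, 59 lay away from promoters (17.8% of those domains, against 21.1% of all such regions) and 17 at promoters (6.42%, against 4.85%).

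A few domains belonged mainly to one line. The CK1750 lists covered a domain 18.4 kb from Tnnt2, the cardiac troponin T gene, over 5271 and 5614 bp, and the Tnm2 lists covered 929 and 614 bp, a log2 ratio of 2.5 with DMSO. Lfng, which encodes a glycosyltransferase that modifies Notch receptors, was covered over 5155 and 5240 bp in CK1750 and 1429 and 1580 bp in Tnm2 (1.85). The other extreme held the Chchd6 intron (-3.13), Slc6a6 (-2.13) and an intron of the lamin gene Lmnb1 (919, 2717, 3478 and 1446 bp, -1.92). In Tnnt2 and Lfng the lines did not overlap under either treatment, and in the Lmnb1 intron they did.

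Broad domains were unevenly spread over the chromosomes. On chromosome 15, 78 of 675 regions found in every list were broad (11.6%, Wilson 95% interval 9.36 to 14.2%), and on chromosome 19, 58 of 568 (10.2%, 7.98 to 13.0%), against 4.63% over all chromosomes. The lowest shares were on chromosomes 12 (1.32%, 0.565 to 3.05%) and X (1.53%, 3 domains). Neighbouring regions share their surroundings and are not independent.

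**Figure D5:**
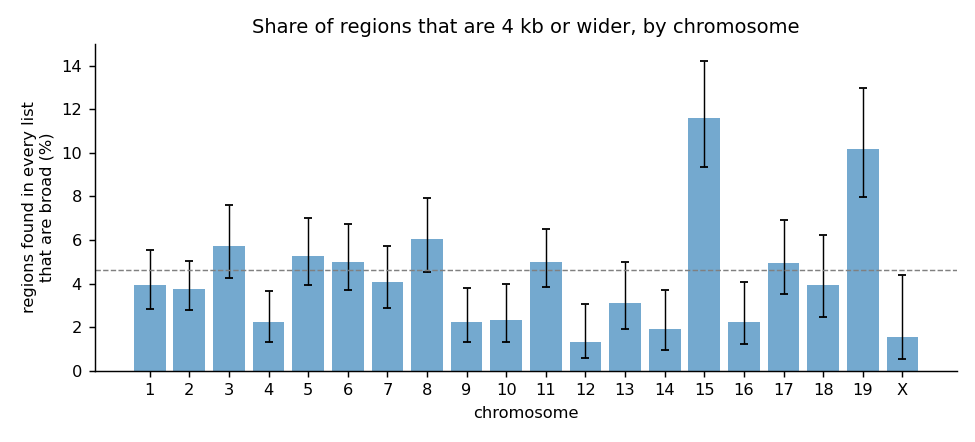
Share of the regions found in every list that are broad domains (y axis, percent) on each chromosome (x axis), with Wilson 95% intervals and a dashed line at 4.63%, the share over all chromosomes. Chromosomes 15 and 19 stand above the rest at 11.6 and 10.2%.

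Some domains came in clusters. Another domain lay within 50 kb of 205 domains (34.3%). The largest cluster held 6 domains, summing to 37891 bp, at the keratin genes Krt78, Krt79 and Krt8 (chr15:101927049-102019014). Clusters of 5 lay at Myh9 (chr15:77797525-77909322), at Krt80 (chr15:101315859-101383791), at Gpx4, Midn and Sbno2 on chromosome 10, and on the stretch of chromosome 19 from Pcnx3 to Malat1 and Neat1 (chr19:5687944-5851099). A cluster of 4 held the TSSs of S100a2, S100a3, S100a4, S100a6 and S100a16. These clusters were named after their values were seen.

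Copied sequence touched few domains. In 580 domains no 500-bp tile had a copy elsewhere in the genome at 95% identity or more. Among the 17 that had one, 6 were copied over more than 50% of their tiles, 4 of them on chromosome 8 and one at Ly6c1. Of the named genes, Cdk6 had 20% of its tiles copied.

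Domains away from promoters were poorer in CpG and richer in TGANTCA than narrow promoter regions. Median GC content was 51.2% in domains, 53.0% in promoter domains and 49.4% in the others, against 56.4% in promoter regions under 4 kb and 48.3% in distal regions under 4 kb. The observed-to-expected CpG ratio had medians of 0.407 in promoter domains and 0.695 in narrow promoter regions, and 0.194 and 0.208 in the distal sets. The wider promoter domains include more sequence away from the TSS, and in the middle 1 kb the CpG ratio was 0.351 against 0.767.

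Matches to TGANTCA, shown above in 3 introns and the Ezr promoter, numbered 0.438 per kb in domains away from promoters, 0.551 per kb in narrow distal regions, 0.331 per kb in promoter domains and 0.206 per kb in narrow promoter regions. Flanking sequence of the same sets had 0.298 to 0.337 per kb. At least 1 match lay in 89.2% of the domains away from promoters and 62.8% of narrow distal regions, which are shorter. The rate per kb was thus higher in narrow distal regions than in wide ones. The ETS site CCGGAAG, sought on both strands, numbered 0.124 per kb in promoter domains and 0.297 per kb in narrow promoter regions.

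In the 300-base RefSeq promoters, the TGANTCA and TATA letters were more frequent in domains than in narrow regions, and the ETS letters less frequent. TGANTCA matched in 20 of 237 promoters inside domains (8.44%, Wilson 95% interval 5.53 to 12.7%), 4.47% of 7009 promoters in narrow regions and 7.01% of all 20054. CCGGAAG matched in 7.59%, 22.5% and 11.9%, TATAAA in 9.7%, 5.54% and 12.1%, and CCAAT in 30.0%, 35.2% and 37.9%. A match describes the letters only, and says nothing of binding.

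Domains near the width limit were not a class apart. The narrowest lay 19973 bp from Pou2f2 (4000 bp, covered over 2337, 3514, 3919 and 3256 bp), 70.5 kb from Zfp36l2 (4001 bp, covered over 2659, 4001, 3130 and 1656 bp) and 173 kb from Tcf4 (4003 bp, covered over 1893, 2665, 3861 and 1454 bp). Just under the limit were regions at Lima1 (3998 bp, covered over 2572, 3802, 2138 and 1573 bp) and Id3 (3997 bp, covered over 2302, 3997, 2210 and 1860 bp), and one 3.32 kb from Rptor (3994 bp). Another 18 regions were wide enough but missing from a list. Among them, named after their values were seen, Sox2, a stem cell factor gene, had a region of 8853 bp, covered over 8075 and 8560 bp in CK1750 and without a peak in either Tnm2 list.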

How the data were processed

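H3K27ac ChIP-seq was analysed as deposited. Reads had been aligned to mm10 with Bowtie2, and the authors called peaks with MACS 1.4.2, keeping those with a P value under 1e-05. The 4 deposited lists give each peak's position and a score, -10 log10 of its P value, with a minimum of 50. Which libraries each merged list pooled, and with which control, was not given in the sources used here. All columns were used, so 0 were set aside. Peaks outside chromosomes 1 to 19 and X (51) were left out.

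Regions were merged in Python 3.11.15 (numpy 2.4.6, pandas 2.3.3, scipy 1.17.1). Covered length is the number of bases of a region under a list's peaks, and a difference was counted past 1.5-fold. Genes were from GENCODE M21 and promoters and microRNAs from RefSeq; 181 of 275 genes had a RefSeq promoter inside a domain. Copies were sought with minimap2 2.31 (500-bp tiles, 95% identity over 80%). Merging was tested on simulated lists.

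Named were the 10 widest domains, the 5 with the largest smallest coverage, the 3 highest and 3 lowest ratios per line and between lines with DMSO, the 3 on each side of the width limit, at most 6 genes per list, and the domain with most TSSs. Members and lists were chosen with earlier results of these data known. Some listed genes are not reported here.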

Additional observations from a re-analysis of the deposited data

Results flagged for a closer look

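Covered length in the domains went opposite ways with UNC0638 in the lines. The median log2 ratio over DMSO was 0.22 in CK1750 and -0.13 in Tnm2, and the difference was not tested, because each line had 1 list per treatment.

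Peaks outside chromosomes 1 to 19 and X were not used in any comparison. They numbered 27 in CK1750 with DMSO, 9 with UNC0638, 10 in Tnm2 with DMSO and 5 with UNC0638. Those on unplaced sequence numbered 12, 7, 7 and 5, with highest scores of 3100, 3100, 2869 and 1511.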

How the results depend on the processing

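Among 84 alternative values of 10 results, 51 stayed within their interval or within 1.5 times the count, 33 moved further and 0 reversed. The interval of a share was the Wilson interval, and that of a median ratio came from the ordered values of the domains. Both treat domains as independent, which neighbours are not, and hold no spread between replicates. They serve here only as a yardstick for the size of a shift. Ratios here are median log2 ratios of covered length. At a width of 3000 bp there were 1521 domains with 76 listed genes, the UNC0638 over DMSO ratio in CK1750 was 0.19, 15.3% passed 1.5-fold in Tnm2 and 12.2% were covered over 4 kb in every list. At 5000 bp there were 303 domains, and the last shares were 7.59 and 57.8%. Joining peaks within 500 bp gave 1123 domains, ratios of -0.2 in Tnm2, and -0.15 and 0.29 between lines with DMSO and UNC0638, 19.9% and 21.3% past 1.5-fold in CK1750 and Tnm2, and 22.8% covered over 4 kb in every list. With scores of at least 100 the ratio was 0.24 in CK1750 and 0.29 between lines with UNC0638, and 21.3% and 15% passed 1.5-fold. With the 18789 highest-scoring peaks of each list the ratios were 0.24 and -0.07 in CK1750 and Tnm2, and 20% passed 1.5-fold in CK1750. With at least 50% of the region covered in every list, 49.2% had a TSS within 1 kb, the ratios were 0.18 and -0.11, 6.17% and 3.29% passed 1.5-fold, and 38.1% were covered over 4 kb in every list. With a single peak of 4000 bp or wider, 6.91% passed 1.5-fold in Tnm2, the ratio between lines with DMSO was -0.04, and 41.7% were covered over 4 kb in every list. A 2-fold limit was passed by 2.35% in CK1750 and 3.18% in Tnm2. Leaving out domains with copied sequence was added after the data were seen and moved none of the 10 results. The causes of these shifts were not tested.

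No paired analysis was possible because each group had 1 merged list. For the same reason no replicate was left out. Depth is unknown, and score and peak length grow with depth, so a longer list cannot be told apart from a deeper one.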
